A study of Mus musculus with 13 samples.

Results

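The antioxidant enzymes measured here are the superoxide dismutases Sod1 and Sod2, catalase (Cat), the glutathione peroxidases Gpx1 and Gpx4, and the peroxiredoxins Prdx2 and Prdx3. They were chosen as the probe sets that the array's annotation assigns to 1 of 10 named genes alone. Of 12488 probe sets on the array, 10 met this rule, and they covered 7 of the 10 genes. Prdx1 was left out because its 2 probe sets are also assigned to a second gene. For Prdx5 and Prdx6 the annotation table used here gave no probe set, and they were not analysed here. Of the 10 probe sets, 9 passed the filter on low signals that 7453 of 12422 non-control probe sets passed. The exception was Prdx2 probe set 100330_at.

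Superoxide dismutases turn superoxide, a by-product of respiration and of several oxidases, into hydrogen peroxide. Catalase then splits the peroxide, while glutathione peroxidases and peroxiredoxins reduce it to water, using glutathione or thioredoxin that is recharged with NADPH. Neurons respire heavily and hold little catalase, and oxidative damage has long been studied in Huntington's disease.

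Gene expression was measured as total RNA of whole brain hemispheres on 13 Affymetrix MG-U74Av2 arrays, in which a set of short probes reads each transcript. The study asked by its groups what the R6/2 genotype and a triple drug treatment did to the brain. The R6/2 mouse carries a transgene of human huntingtin exon 1 with an expanded CAG repeat, driven by the human promoter, in addition to its own huntingtin genes. The groups were 3 R6/2 treated, 4 R6/2 untreated, 3 wild type (WT) treated and 3 WT untreated arrays. The treatment joined moclobemide (10 mg/kg per day), tacrine (2.7 mg/kg per day, from 5 weeks of age) and creatine (1% w/v in wet mash). Tacrine blocks the enzymes that break down acetylcholine, moclobemide blocks the monoamine oxidase MAOA, which releases hydrogen peroxide, and creatine buffers cellular energy. The drugs were listed for all samples, untreated ones included, so the treatment was read from the titles. An age at harvest, 8 weeks, was given for 1 WT untreated sample. The labels gave no sex and did not say that each array was a separate animal, so p-values measure only the spread between these arrays. The array's annotation lists mouse genes, so the human transgene was not read here and the genotypes rest on the titles.

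Median signals were 39.6 to 45.1 per array. R6/2 untreated arrays 3 and 2 stood apart on the first principal component (33.9% of the variance), with scores of 45.7 and 25.4, against at most 4.09 on the other arrays. The 66 control probe sets of R6/2 untreated arrays 2, 3 and 4 read 1.2 times (tolerance 0.05) those of 3 other R6/2 arrays (treated arrays 1 and 3 and untreated array 1), while at most 0.716% of the other probe sets did so. The lot number of R6/2 treated array 1 repeated that of R6/2 untreated array 4. Values without R6/2 untreated arrays 2 and 3, or 2, 3 and 4, are given where leaving these out ended a call or clearly moved a change.

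None of the 9 antioxidant enzyme probe sets passed an adjusted p of 0.05 (limma, Benjamini-Hochberg over 7453 probe sets) in any of 6 comparisons. Over all kept probe sets the genotype effect in untreated mice passed for 11.9%, with 5.49% higher and 6.41% lower in R6/2 mice. In treated mice 0.792% passed, and for the genotype effect averaged over treatment 6.61%. For the treatment effect in R6/2 mice, the treatment effect in WT mice and the interaction of genotype and treatment, 0% passed, although 1262, 769 and 1003 probe sets had an unadjusted p under 0.05. Among the 9 enzyme probe sets, Sod1 alone reached an unadjusted p under 0.05, in the genotype effect of untreated mice and in the treatment effect of R6/2 mice, which share the R6/2 untreated arrays. The median log2 change of the enzymes was 0.09 for the untreated genotype effect, beside 0.04 over all kept probe sets. Their median absolute change there was 0.11, beside 0.26 over all kept probe sets, and in treated mice it was 0.08, beside 0.15. In R6/2 mice the median absolute treatment change was 0.14 for the enzymes and 0.21 over all kept probe sets. In WT mice it was 0.09 for the enzymes and 0.17 over all kept probe sets. The median SD within groups was 0.238 log2 units for the enzymes and 0.236 for all kept probe sets.

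**Figure D1:**
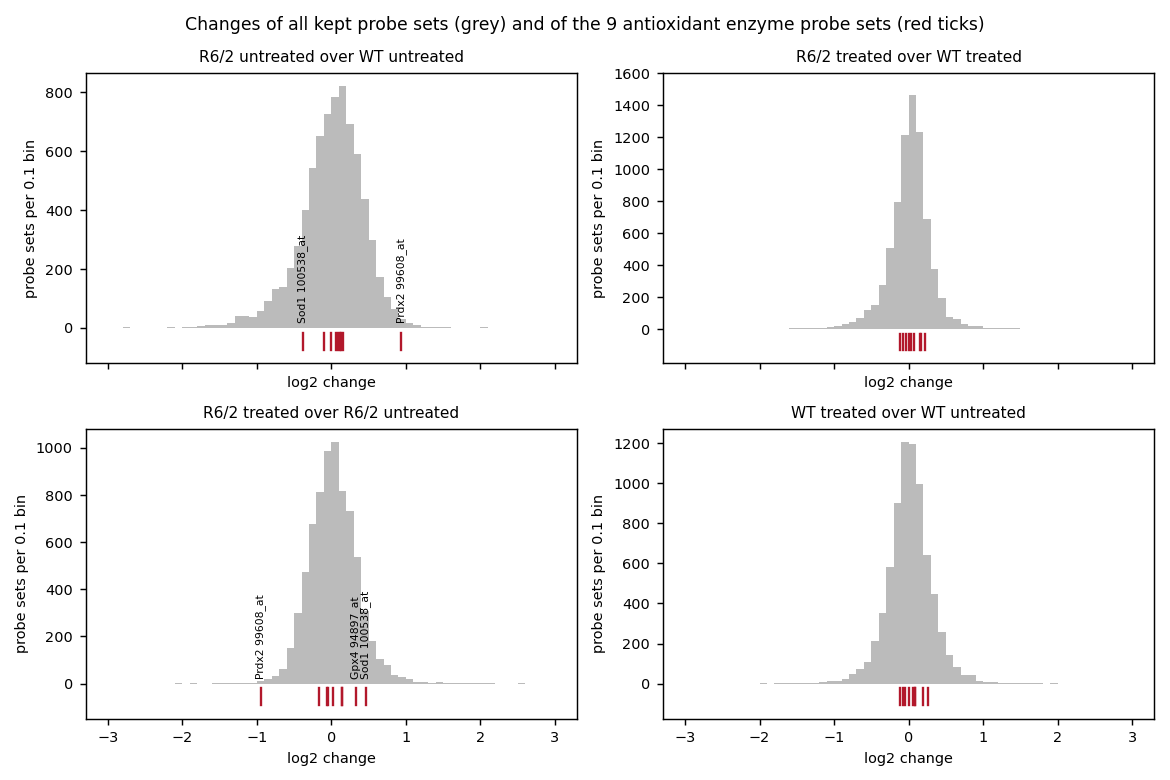
Log2 change (x axis) against the number of probe sets per bin of 0.1 (y axis) for all 7453 kept probe sets (grey) in 4 comparisons, with the 9 antioxidant enzyme probe sets as red ticks below the axis; ticks beyond 0.3 on either side are named. Most ticks lie near 0, and Sod1, Gpx4 and Prdx2 probe set 99608_at are the ones named.

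Sod1, the copper and zinc superoxide dismutase of the cytosol (probe set 100538_at), varied mainly among R6/2 untreated arrays. Its signals were 680.3, 737.8 and 694.3 in R6/2 treated brains and 704.1, 345.5, 528 and 529.1 in R6/2 untreated brains. They were 678.2, 648.2 and 686.3 in WT treated brains and 615.5, 714.1 and 673.5 in WT untreated brains. In 3 of 4 R6/2 untreated arrays the signal lay below every array of the other groups, while array 1 lay among them, so the groups overlapped. The untreated genotype change was -0.38 ± 0.17 on the log2 scale (SE, 95% interval -0.75 to -0.01), with a limma p of 0.0425 and an adjusted p of 0.15. The limma interval and p assume equal spread in all groups. The SD of the Sod1 signals was 146 in R6/2 untreated brains, against 30 in R6/2 treated, 20.1 in WT treated and 49.6 in WT untreated brains. The exact two-sided permutation p over arrays was 0.171. In treated mice the genotype change was 0.07 (interval -0.33 to 0.46).

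For Sod1 the treatment change was 0.46 ± 0.17 in R6/2 mice (SE, interval 0.09 to 0.83, limma p = 0.0176, adjusted p = 0.251, exact permutation p = 0.114). In WT mice it was 0.01 (interval -0.39 to 0.40). The difference between these treatment changes was 0.45 ± 0.25 (SE, adjusted p = 0.439) and did not pass. Both changes depended on which R6/2 untreated arrays were used. Without R6/2 untreated array 1 the Sod1 genotype change was -0.54 and passed (adjusted p = 0.0267), and the R6/2 treatment change was 0.62 (adjusted p = 0.0543). Without R6/2 untreated arrays 2 and 3 they were -0.13 and 0.21. Without R6/2 untreated arrays 2, 3 and 4 they were 0.08 and 0. The 3 low Sod1 readings were thus on the arrays whose control readings repeat those of other arrays. The part of that in the result was not tested.

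Sod2, the manganese enzyme of the mitochondrial matrix (probe set 96042_at), read 83.1, 89.3 and 72.6 in R6/2 treated brains and 79.7, 99.7, 86.4 and 70.9 in R6/2 untreated brains. WT treated brains had 71.9, 63.8 and 86.1, and WT untreated brains 70.9, 88.7 and 73.9. The 4 groups overlapped. The genotype change was 0.11 in untreated mice (interval -0.23 to 0.45) and 0.15 in treated mice (interval -0.21 to 0.51). The treatment change was -0.04 in R6/2 mice (interval -0.38 to 0.30) and -0.08 in WT mice (interval -0.44 to 0.28). Leaving out R6/2 untreated arrays 2 and 3 turned the untreated genotype change to -0.04 and the R6/2 treatment change to 0.11, and neither was called.

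**Figure D2:**
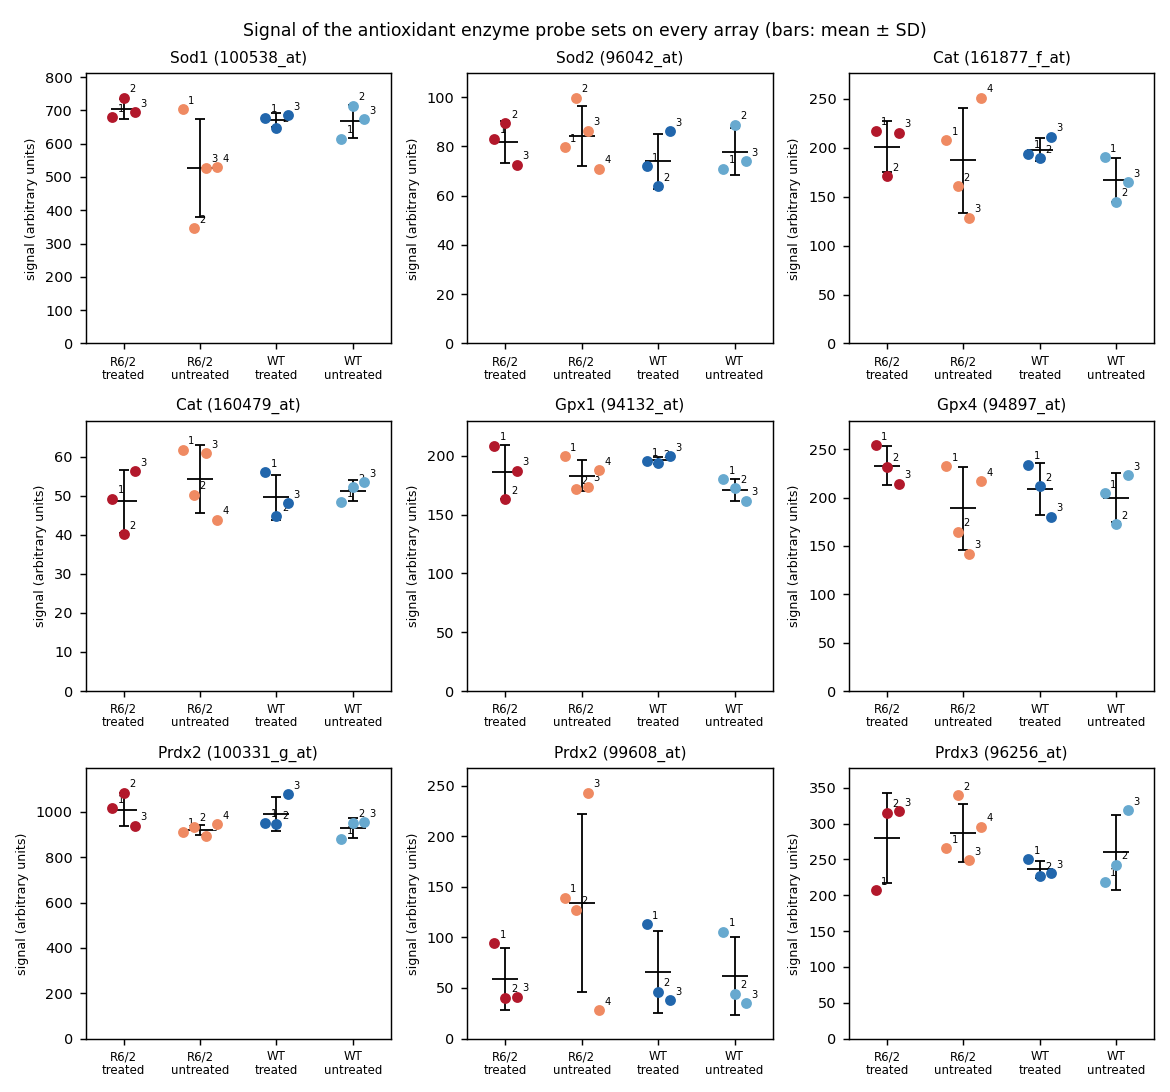
Signal in arbitrary units (y axis, from 0) on every array for the 9 kept antioxidant enzyme probe sets, by group; points are arrays with their number, bars are mean ± SD (n = 3, 4, 3 and 3). Sod1 is low on R6/2 untreated arrays 2, 3 and 4, and Prdx2 probe set 99608_at has separate high and low readings in every group.

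Catalase, the peroxisomal enzyme that splits hydrogen peroxide, was read by 2 probe sets. Probe set 161877_f_at, whose suffix marks probes that can match related sequences, gave 217.3, 171 and 215.3 in R6/2 treated brains and 207.9, 160.7, 128.4 and 251 in R6/2 untreated brains. It gave 193.7, 189.5 and 211.3 in WT treated brains and 190.1, 144.8 and 164.8 in WT untreated brains. The lowest and the highest of these readings both came from R6/2 untreated mice. Its genotype change was 0.13 in untreated mice (interval -0.28 to 0.54) and 0.01 in treated mice (interval -0.43 to 0.45). Without R6/2 untreated arrays 2 and 3 the untreated change was 0.46 (adjusted p = 0.125). The treatment change was 0.14 in R6/2 mice (interval -0.27 to 0.55) and 0.26 in WT mice (interval -0.18 to 0.70). The R6/2 treatment change turned to -0.19 without R6/2 untreated arrays 2 and 3 and to -0.06 without arrays 2, 3 and 4.

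The other Cat probe set, 160479_at, had 49.2, 40.2 and 56.3 in R6/2 treated brains and 61.8, 50.2, 60.8 and 43.8 in R6/2 untreated brains. WT treated brains had 56, 44.8 and 48.1, and WT untreated brains 48.3, 52.2 and 53.5. The groups overlapped, and the changes lay between -0.16 (treatment in R6/2 mice, interval -0.53 to 0.22) and 0.06 (genotype in untreated mice, interval -0.31 to 0.44). Without R6/2 untreated arrays 2, 3 and 4 these changes were -0.36 and 0.27. Across the 13 arrays the log2 values of the 2 Cat probe sets had a Pearson r of -0.27.

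Gpx1, the selenium-dependent glutathione peroxidase of cytosol and mitochondria (probe set 94132_at), had an SD within groups of 0.11 log2 units, which 3.81% of kept probe sets did not exceed. It read 208.5, 163 and 187.4 in R6/2 treated brains and 199.6, 171.3, 173.5 and 187.6 in R6/2 untreated brains. It read 195.4, 193.7 and 199.5 in WT treated brains, against 179.8, 172.5 and 161.7 in WT untreated brains. Every WT treated reading exceeded every WT untreated one, and no other enzyme had groups that did not overlap in any of the 4 comparisons of 2 groups. Of all kept probe sets 21.8% did not overlap between the WT groups, 11.4% with the treated group higher. The shares were 26.2% for the genotype in untreated mice, 16.8% for the genotype in treated mice and 10.6% for the treatment in R6/2 mice. The WT treatment change of Gpx1 was 0.20 ± 0.12 (SE, interval -0.07 to 0.46, adjusted p = 0.599), and the exact permutation p of 0.1 is the smallest that 3 against 3 arrays can give. In R6/2 mice the treatment change was 0.02 (interval -0.22 to 0.27), and -0.06 without R6/2 untreated arrays 2 and 3. The genotype change was 0.09 in untreated mice (interval -0.15 to 0.34) and -0.08 in treated mice (interval -0.34 to 0.18). The untreated genotype change was 0.18 without R6/2 untreated arrays 2 and 3 and 0.22 without arrays 2, 3 and 4.

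Gpx4, the enzyme that reduces lipid peroxides in membranes (probe set 94897_at), gave 254, 232 and 214.3 in R6/2 treated brains and 232.7, 164.7, 141.9 and 216.8 in R6/2 untreated brains. In WT treated brains it gave 233.8, 211.8 and 180.3, and in WT untreated brains 204.5, 172.6 and 223.2. The 2 lowest readings were those of R6/2 untreated arrays 3 and 2, the arrays that stood apart. The R6/2 treatment change was 0.33 (interval -0.03 to 0.69, adjusted p = 0.324). It was 0.05 without those arrays and 0 without R6/2 untreated arrays 2, 3 and 4. The genotype change was -0.10 in untreated mice (interval -0.47 to 0.26) and 0.17 in treated mice (interval -0.22 to 0.56), and the WT treatment change was 0.06 (interval -0.33 to 0.45). The untreated genotype change turned to 0.17 without R6/2 untreated arrays 2 and 3 and to 0.23 without arrays 2, 3 and 4.

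Prdx2, a cytosolic peroxiredoxin abundant in neurons and red blood cells, was read by 3 probe sets that gave different pictures. The brightest, 100331_g_at, read 1017.4, 1084.4 and 939.6 in R6/2 treated brains and 912.9, 934.2, 893 and 944.9 in R6/2 untreated brains. It read 952.3, 946.2 and 1077.5 in WT treated brains and 879.9, 952.8 and 955 in WT untreated brains. These readings were very even: the SD within groups was 0.0794 log2 units, a value that only 0.644% of the kept probe sets did not exceed. The genotype change was -0.01 in untreated mice (interval -0.21 to 0.19) and 0.03 in treated mice (interval -0.18 to 0.25). The treatment change was 0.14 in R6/2 mice (interval -0.07 to 0.34, adjusted p = 0.451) and 0.09 in WT mice (interval -0.12 to 0.31). The exact permutation p of the R6/2 treatment change was 0.0571, and these groups overlapped.

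Prdx2 probe set 99608_at instead split every group. It had 94.2, 40.5 and 41.4 in R6/2 treated brains and 139.3, 127.2, 242.9 and 28 in R6/2 untreated brains. WT treated brains had 112.8, 46.5 and 38.1, and WT untreated brains 105.8, 44.4 and 35. Readings fell into a run of 7 arrays at 28 to 46.5 and a run of 6 arrays at 94.2 to 242.9. The upper run held 1 of 3 R6/2 treated, 3 of 4 R6/2 untreated, 1 of 3 WT treated and 1 of 3 WT untreated arrays, and each group had arrays in both runs. The SD within groups was 1.01 log2 units, and 99.7% of kept probe sets did not exceed it. The untreated genotype change was 0.94 ± 0.61 (SE, interval -0.38 to 2.25, adjusted p = 0.318, exact permutation p = 0.314), and the R6/2 treatment change -0.95 (interval -2.27 to 0.36). Without R6/2 untreated array 4 the genotype change was 1.57 and passed (adjusted p = 0.0363). Without R6/2 untreated arrays 2 and 3 it was 0.19 and the R6/2 treatment change -0.21. Without arrays 2, 3 and 4 they were 1.35 and -1.37. Against probe set 100331_g_at its Pearson r over the 13 arrays was -0.51. The last Prdx2 probe set, 100330_at, lay at or under the floor of 3.1 on all 13 arrays and was not tested.

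The probe sets that varied most like 99608_at were often from its own chromosome. Among the 20 kept single-gene probe sets with the highest absolute Pearson r over the 13 arrays (0.84 or more), 10 belong to genes on chromosome 8, where Prdx2 lies. Of the 6738 other kept single-gene probe sets, 5.53% do. For each of the other 8 enzyme probe sets, 0 to 2 of the 20 most alike shared its chromosome. Scoc, the most alike (r = 0.96), read 342.4, 151.2 and 156.7 in R6/2 treated brains and 342.9, 321.5, 520.2 and 122.4 in R6/2 untreated brains. In WT treated brains Scoc read 322.2, 155.1 and 149.2, and in WT untreated brains 278.6, 106 and 107.2. The same 6 arrays as for Prdx2 were high. RefSeq's gene order on GRCm38.p6 puts 46 protein-coding genes between Scoc and Prdx2. Vps35, a retromer subunit (r = 0.89), and Trmt1, a tRNA methyltransferase (r = 0.89), have 15 and 14 such genes between them and Prdx2, and Itfg1 (r = 0.84) has 22. The 2 probe sets of Fam32a ran opposite (r = -0.92 and -0.90, 102 genes between). The others were Kifc3 (-0.86, 95 genes), Zfp617 (0.85, 112 genes), Gcsh (0.87, 283 genes) and Tubgcp3 (0.85, 559 genes). These probe sets were singled out after their values were seen, all 13 arrays enter each r, and why they vary together was not tested.

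**Figure D3:**
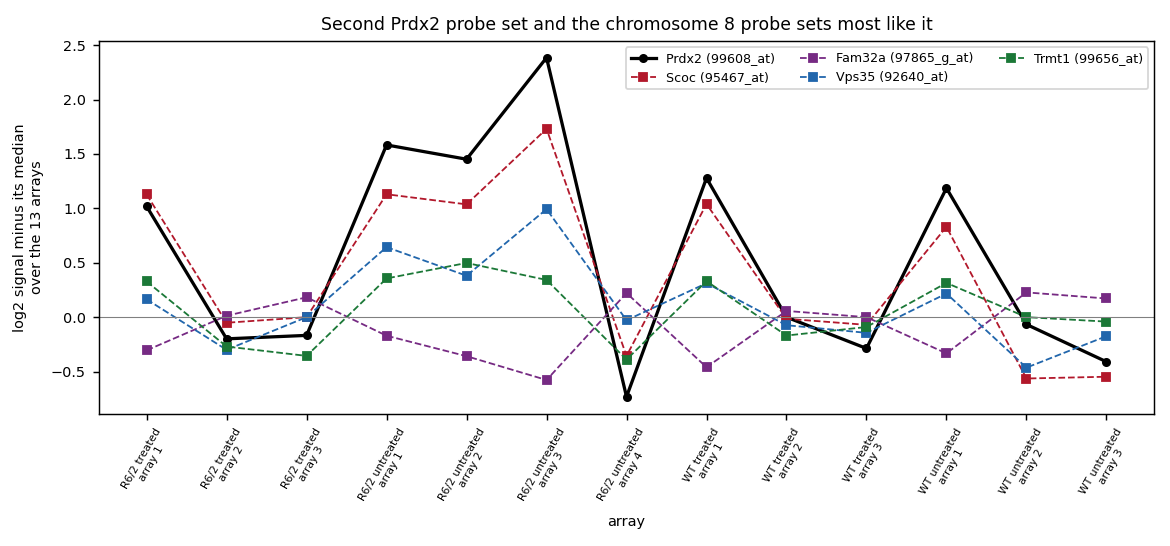
Log2 signal minus the median over the 13 arrays (y axis) on each array (x axis) for Prdx2 probe set 99608_at (black) and 4 probe sets of other chromosome 8 genes. Scoc, Vps35 and Trmt1 follow the highs and lows of Prdx2 from array to array, and Fam32a runs opposite.

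Prdx3, the mitochondrial peroxiredoxin (probe set 96256_at), read 207.3, 315.3 and 317.3 in R6/2 treated brains and 265.9, 339.7, 248.6 and 295.7 in R6/2 untreated brains. It read 250.4, 227.2 and 230.6 in WT treated brains and 219, 242.7 and 318.9 in WT untreated brains. Readings of R6/2 mice overlapped those of WT mice under either treatment. The genotype change was 0.15 in untreated mice (interval -0.21 to 0.52), 0.22 in treated mice (interval -0.17 to 0.61) and 0.19 averaged over treatment (interval -0.08 to 0.45, adjusted p = 0.392). The treatment change was -0.06 in R6/2 mice (interval -0.42 to 0.31) and -0.12 in WT mice (interval -0.52 to 0.27). The R6/2 treatment change was 0.05 without R6/2 untreated arrays 2, 3 and 4.

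**Figure D4:**
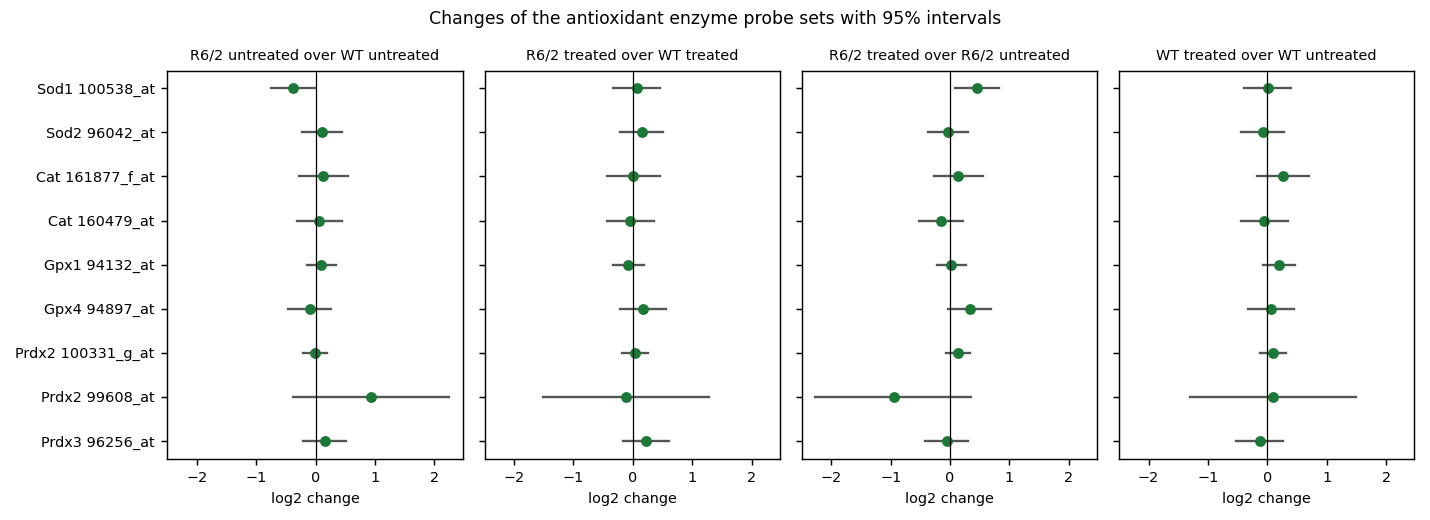
Log2 change (x axis) with its 95% interval for the 9 kept antioxidant enzyme probe sets (rows) in 4 comparisons of 3 or 4 arrays a group. Intervals of Sod1 exclude 0 in the untreated genotype comparison and in the R6/2 treatment comparison, neither of which passed after adjustment; all other intervals shown include 0.

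The enzymes did not vary as one group across arrays. Over the 13 arrays the highest Pearson r between 2 enzyme probe sets was 0.69, between Cat 161877_f_at and Gpx1. It was 0.67 between Cat 161877_f_at and Gpx4 and 0.54 between Sod1 and Gpx4. The lowest was -0.60, between Gpx1 and Prdx3. The kept probe sets of other genes most like each enzyme over these arrays were Klf6 (r = 0.94) and Safb (0.93) for Sod1, and Cdc16 (0.89) and Rcan3 (0.88) for Sod2. They were Krt84 (0.92) and Ppp6r3 (0.90) for the brighter Cat probe set, and Enpep (0.92) and Cavin1 (0.90) for Gpx1. For Gpx4 they were Nucb1 (0.91) and Timm10b (0.90), for the brightest Prdx2 probe set Id3 (0.85) and Tulp3 (0.84), and for Prdx3 Brox (0.80) and Tbc1d20 (0.79). All values of an array share its RNA and its scaling, so these r values are a description only.

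Some genes that feed and surround the enzymes passed in the genotype comparisons. Of 127 such genes in 8 lists, 97 were on the array and 81 were kept, with 98 probe sets. In untreated mice 6 genes rose and 4 fell in R6/2 mice, and 71 did not pass. The 11 probe sets that passed were 11.2% of the 98, beside 11.9% of all kept probe sets, a share near the background. In bulk tissue, fewer cells of a type and less RNA per cell cannot be told apart. No listed gene passed in treated mice, in either treatment comparison or for the interaction. For the genotype effect averaged over treatment 5 probe sets passed, 5.1% of the 98, beside 6.61% of all kept probe sets. They were those of Gclc (0.35, adjusted p = 0.0304), Phyh (0.50, adjusted p = 0.0354), Me1, Mt1 and Mt2.

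Glutathione genes had 19 kept members, of which Gclc rose and Gpx3 fell. Gclc, the catalytic subunit of the enzyme that limits glutathione synthesis, read 165, 180.1 and 155.2 in R6/2 treated and 181.3, 201.6, 217.1 and 160.3 in R6/2 untreated brains. It read 156.9, 151.4 and 146.4 in WT treated and 127.7, 121.4 and 132.8 in WT untreated brains. No R6/2 untreated reading overlapped those of WT untreated mice, as for 26.2% of kept probe sets. The untreated genotype change was 0.57 ± 0.12 (SE, adjusted p = 0.0139). Gpx3, the secreted glutathione peroxidase, read 193.9, 171.7 and 189.1 in R6/2 treated and 162.4, 93.6, 93.5 and 145 in R6/2 untreated brains. It read 193.9, 196.3 and 188.7 in WT treated and 177.3, 226.9 and 237.8 in WT untreated brains. Its untreated genotype change was -0.83 ± 0.19 (SE, adjusted p = 0.0162), and in R6/2 mice its treatment change was 0.62 ± 0.19 (SE, adjusted p = 0.247). That treatment change was 0.27 without R6/2 untreated arrays 2 and 3 and 0.19 without arrays 2, 3 and 4.

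In the thioredoxin and glutaredoxin list 2 of 12 kept genes rose and 10 did not pass. Prdx4, the peroxiredoxin of the endoplasmic reticulum, read 44.3, 57.3 and 44.7 in R6/2 treated and 73.9, 81, 93.1 and 69.5 in R6/2 untreated brains. WT treated brains had 49.6, 52 and 45.3, and WT untreated brains 44, 43.8 and 59. The R6/2 untreated group lay above every other array, with a genotype change of 0.70 ± 0.17 (SE, adjusted p = 0.0197) and a treatment change in R6/2 mice of -0.70 ± 0.17 (SE, adjusted p = 0.246). Those comparisons share the R6/2 untreated arrays, and the groups did not overlap for 26.2% of kept probe sets in the genotype comparison and for 10.6% in the treatment comparison. Txnl1, a thioredoxin-like protein of the proteasome, changed by 0.79 ± 0.22 (SE, adjusted p = 0.0334) in untreated mice, with 97.3, 143.3, 180.9 and 88.2 in R6/2 against 84.1, 68.1 and 61.2 in WT brains.

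Among 8 superoxide dismutase partners, which include the copper chaperones, 2 fell and none rose. Both are metallothioneins, small proteins that bind zinc and copper. Mt1 read 515.1, 575.8 and 496.8 in R6/2 treated and 528.5, 395.6, 415.9 and 621.7 in R6/2 untreated brains, against 875.7, 706.4 and 752.4 in WT treated and 946.8, 1153.1 and 925.4 in WT untreated brains. Mt2 read 1159.3, 1094.8 and 1181.5 in R6/2 treated and 953.3, 972.2, 1054.9 and 1191.5 in R6/2 untreated brains, against 1552, 1295.1 and 1365.5 in WT treated and 1563.5, 1573.2 and 1535.5 in WT untreated brains. Every R6/2 reading of either gene lay below every WT reading. Groups did not overlap for 26.2% of kept probe sets in the untreated genotype comparison and for 16.8% in the treated one. For all R6/2 against all WT arrays no such share was computed. Averaged over treatment, Mt1 changed by -0.81 ± 0.11 (SE, adjusted p = 0.000731) and Mt2 by -0.44 ± 0.08 (SE, adjusted p = 0.00323). In treated mice alone the changes were -0.55 (adjusted p = 0.183) and -0.29 (adjusted p = 0.389).

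Of 9 kept genes that supply NADPH, Me1 rose and 8 did not pass. Me1, the cytosolic malic enzyme, read 202.1, 194.6 and 191.7 in R6/2 treated and 225.4, 239.1, 237.9 and 230.9 in R6/2 untreated brains. It read 194.3, 159.7 and 151.2 in WT treated and 143.6, 144.1 and 143.2 in WT untreated brains. The untreated groups lay far apart beside their spread, with a genotype change of 0.70 ± 0.11 (SE, adjusted p = 0.00279). Averaged over treatment the change was 0.46 ± 0.08 (SE, adjusted p = 0.00329).

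Of 8 kept NRF2 pathway genes, 1 rose and 1 fell. Nfe2l2, which encodes NRF2, the transcription factor that induces antioxidant genes, changed by 0.71 ± 0.22 (SE, adjusted p = 0.049), with 64.4, 99.8, 120.6 and 61.7 in R6/2 untreated against 55.1, 46.9 and 50.6 in WT untreated brains. Nfe2l1, a related factor that regulates proteasome genes, fell on both probe sets, with changes of -0.91 ± 0.24 (SE, adjusted p = 0.0302) on 101757_at and -0.51 ± 0.15 (SE, adjusted p = 0.0473) on 160535_at. On 101757_at Nfe2l1 read 185.3, 140.4, 106.1 and 246.8 in R6/2 untreated against 322.8, 318.1 and 272.8 in WT untreated brains.

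Of 18 kept peroxisome genes, Phyh rose and 17 did not pass. Phyh, which starts the breakdown of phytanic acid, read 248.5, 286.9, 445.6 and 243.4 in R6/2 untreated against 201.9, 172 and 204.7 in WT untreated brains, a change of 0.63 ± 0.18 (SE, adjusted p = 0.0399). None of the 4 kept genes in the list of selenoproteins and their synthesis passed, nor did any of the 3 kept sources of superoxide or peroxide. The nearest were Selenok on probe set 162420_r_at (0.67, adjusted p = 0.0659), Selenof on 160360_at (0.36, adjusted p = 0.0806) and Maoa, the target of moclobemide (0.49, adjusted p = 0.0707). The other probe sets read 0.15 for Selenok (160403_at, adjusted p = 0.441) and -0.05 for Selenof (96249_at, adjusted p = 0.807). Cyba, a subunit of the superoxide-forming NADPH oxidase, had a treatment change of 0.57 in R6/2 mice (adjusted p = 0.246).

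Fewer of these calls were made without R6/2 untreated arrays 2 and 3, a fit that also has fewer arrays. Without them Me1 (0.67, adjusted p = 0.0163), Mt1 (-0.81, adjusted p = 0.00851) and Mt2 (-0.55, adjusted p = 0.0275) passed in untreated mice. The changes of Gclc (0.42, adjusted p = 0.0851), Gpx3 (-0.47, adjusted p = 0.0929), Prdx4 (0.56, adjusted p = 0.139) and Phyh (0.36, adjusted p = 0.157) kept their sign and did not pass. The same held for Txnl1 (0.39, adjusted p = 0.24), Nfe2l2 (0.31, adjusted p = 0.369) and Nfe2l1 (-0.51 and -0.22, adjusted p = 0.219 and 0.314). For the genotype effect averaged over treatment, Gclc (0.28, adjusted p = 0.0654) no longer passed without them, while Phyh (0.37, adjusted p = 0.028), Me1, Mt1 and Mt2 did. Over all probe sets kept in each fit, 163 passed in untreated mice without these arrays and 887 with them. With array 4 left out as well, R6/2 untreated array 1 alone remained in its group. For that fit only the sizes of change are given here, and not whether they passed. The untreated genotype changes were then 0.65 for Me1, -0.92 for Mt1 and -0.71 for Mt2, and the averaged change of Phyh was 0.37.

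**Figure D5:**
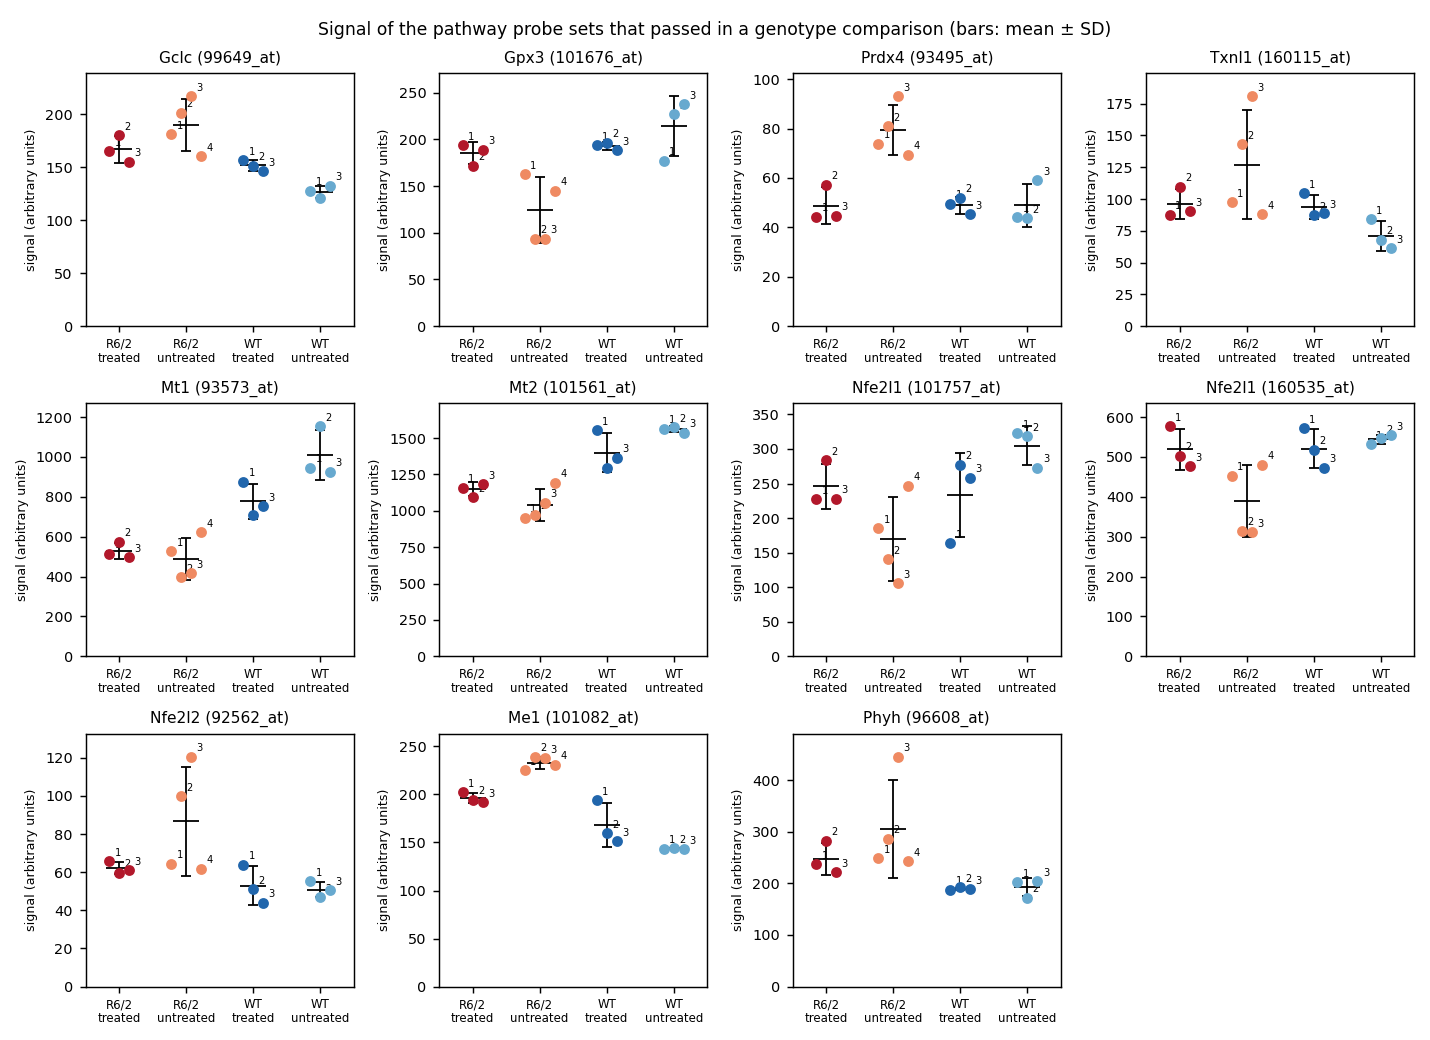
Signal in arbitrary units (y axis, from 0) on every array for the 11 pathway probe sets that passed in a genotype comparison, by group; points are arrays with their number and bars are mean ± SD (n = 3, 4, 3 and 3). Mt1 and Mt2 lie lower in all R6/2 arrays than in all WT arrays. Between genotypes 26.2% of kept probe sets did not overlap in untreated mice and 16.8% in treated mice. For every probe set shown except that of Mt2, R6/2 untreated arrays 2 and 3 are the farthest of their group from WT untreated.

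NRF2 acts through the antioxidant response element, whose core TGACNNNGC was sought on both strands of RefSeq promoter windows (GRCm38.p6, 250 bases before to 50 after a gene's start). The core occurred in 12.4% of all 32851 windows. Of the 7 measured enzyme genes, Sod1 held it, on the other strand. Of 8 pathway genes with a window that passed the test, Me1, Mt2 and Nfe2l2 held it. Gclc and Txnl1, which also passed, are not among these 8. A gene was counted where any of its windows held the core, and some genes, such as Gpx4, Nfe2l1 and Me1, have several. The share of 12.4% is per window, so counts of genes cannot be set directly against it. Sod1, Me1 and Mt2 are shown because Sod1 is the enzyme with the match, and Me1 and Mt2 are the genes with a match that also passed without R6/2 untreated arrays 2 and 3. Capitals mark the core, which reads as its reverse complement in Sod1. It starts 56 bases before the gene's start in Sod1, 6 before in the Me1 window shown and 79 before in Mt2. Another Me1 window, for a different start of the gene (chr9:86687228-86687527), did not hold the core. The windows are chr16:90220512-90220811 (plus strand) for Sod1, chr9:86695865-86696164 (minus strand) for Me1 and chr8:94172368-94172667 (plus strand) for Mt2.
Sod1: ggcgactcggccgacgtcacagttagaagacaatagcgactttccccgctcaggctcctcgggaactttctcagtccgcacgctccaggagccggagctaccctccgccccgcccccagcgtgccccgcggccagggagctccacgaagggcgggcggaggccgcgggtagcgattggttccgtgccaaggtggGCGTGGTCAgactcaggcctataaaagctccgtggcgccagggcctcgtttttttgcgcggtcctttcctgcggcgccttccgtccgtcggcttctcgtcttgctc
Me1: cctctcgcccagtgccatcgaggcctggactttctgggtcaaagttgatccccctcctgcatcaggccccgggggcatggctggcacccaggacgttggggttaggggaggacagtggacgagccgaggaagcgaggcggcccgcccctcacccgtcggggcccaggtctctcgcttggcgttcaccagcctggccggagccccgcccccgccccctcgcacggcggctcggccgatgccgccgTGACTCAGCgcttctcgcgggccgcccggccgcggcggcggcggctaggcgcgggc
Mt2: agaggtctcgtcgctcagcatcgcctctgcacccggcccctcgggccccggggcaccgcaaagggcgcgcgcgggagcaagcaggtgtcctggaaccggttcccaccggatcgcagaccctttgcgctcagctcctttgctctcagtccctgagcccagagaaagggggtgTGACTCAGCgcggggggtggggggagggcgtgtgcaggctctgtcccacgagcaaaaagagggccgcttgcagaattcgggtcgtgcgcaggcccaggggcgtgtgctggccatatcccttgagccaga
With the core in the windows shown, Sod1 did not pass in any comparison, Me1 rose and Mt2 fell. A match is only a run of letters, and no binding was measured here.

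Each of 8 marker lists for cell types of a brain hemisphere had genes that were read, but not every listed gene was on the array. No gene on the array had a mean at or under the floor of 3.1. Some, among them Cnp, Rgs9, Fcer1g and Car1, did not pass the filter at a signal of 24.9, though they enter the sums. Neuron markers (9 of 10 on the array) summed to 8460 to 9020 in R6/2 treated, 7960 to 9080 in R6/2 untreated, 9100 to 10000 in WT treated and 9680 to 9970 in WT untreated brains. Striatal projection neuron markers (5 of 10 on the array) summed to 844 to 910 in R6/2 treated, 905 to 1320 in R6/2 untreated, 2170 to 2500 in WT treated and 2110 to 2350 in WT untreated brains. In untreated mice 2 of 9 kept neuron and 2 of 4 kept striatal markers fell and none rose, beside 6.41% of all kept probe sets that fell. In treated mice 2 of 4 kept striatal markers fell, beside 0.711% of all kept probe sets, and no marker of the other 7 lists passed. Astrocytes make much of the brain's glutathione and metallothionein. Their markers (8 of 10 on the array) summed to 5440 to 6420 in R6/2 treated, 5360 to 5590 in R6/2 untreated, 6140 to 7420 in WT treated and 6240 to 6770 in WT untreated brains. Oligodendrocyte markers (8 of 10 on the array) summed to 2610 to 3600 in R6/2 treated, 2380 to 3060 in R6/2 untreated, 3960 to 4670 in WT treated and 4050 to 4470 in WT untreated brains. In untreated mice 3 of 8 kept astrocyte and 4 of 7 kept oligodendrocyte markers fell and none rose. The brightest genes weigh most in these sums. Penk, with means of 804 in R6/2 untreated and 1850 in WT untreated brains, made up most of the striatal sum. Between these groups, the astrocyte means of Apoe (2320 against 3180), Aldoc (1200 against 1620), Aqp4 and Slc1a2 were lower. Those of Gja1 (959 against 810), S100b (288 against 249), Glul (287 against 234) and Gfap (212 against 183) were higher.

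Microglia markers (11 of 11 on the array) summed to 1330 to 1400 in R6/2 treated, 1320 to 1480 in R6/2 untreated, 1220 to 1290 in WT treated and 1140 to 1430 in WT untreated brains, and 1 of 8 kept rose in untreated mice. In R6/2 untreated against WT untreated brains, means of Ctss (553 against 332), Csf1r (207 against 179), Tyrobp, Itgam and Fcer1g were higher. Means of C1qa (171 against 196), C1qb, C1qc (192 against 256), Cd68, Cx3cr1 and Aif1 were lower. Endothelial markers (9 of 10 on the array) summed to 501 to 588 in R6/2 treated, 502 to 544 in R6/2 untreated, 462 to 512 in WT treated and 452 to 552 in WT untreated brains, and none of 8 kept passed. Choroid plexus markers (4 of 8 on the array) summed to 1090 to 1290 in R6/2 treated, 982 to 1600 in R6/2 untreated, 902 to 1080 in WT treated and 783 to 1070 in WT untreated brains, and 1 of 4 kept rose in untreated mice. Red blood cells hold Prdx2, Cat and Gpx1 in plenty. Their markers (5 of 11 on the array) summed to 955 to 2170 in R6/2 treated, 937 to 1900 in R6/2 untreated, 1020 to 1680 in WT treated and 2010 to 3560 in WT untreated brains, and 1 of 3 kept fell in untreated mice. Over all kept probe sets 5.49% rose and 6.41% fell in R6/2 untreated against WT untreated brains. The part of these cell types in the values and changes above was not tested.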

How the data were processed

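The authors deposited intensity values on a linear scale for 13 arrays, already scaled: the mean after trimming 2% at each end was 100 to 100.1 on every array. The software that made them is not given in the sources used here. Array medians lay within 6.73% of their mean, under the limit of 10%, so no further normalization was applied. Values under 3.1 (10th percentile) were set to 3.1 and log2 was taken. The 66 controls were left out, and probe sets were kept whose mean log2 reached its 40th percentile, equal to a signal of 24.9. The annotation gave 1 gene to 10833 probe sets, several to 396 and none to 1193.

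Group means were fitted with limma 3.58.1 in R 4.3.3 on all 13 arrays, with variances moderated along an intensity trend. Each probe set had the same variance for all groups, so the limma intervals and p-values assume equal spread in the groups. Benjamini-Hochberg adjustment ran over all kept probe sets, with a threshold of 0.05. The fit was tested on simulated data with independent normal noise of the same spread in every group. That test does not cover arrays that stand apart or groups of unequal spread. Single values also had exact two-sided permutation tests over arrays. Precision is limited by how few arrays each group holds.

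The members, pathway lists and markers were chosen with earlier results of these data known. The genes named are all members, up to 4 passing genes of each pathway list by smallest p or, where none passed, the 2 with the smallest p, and the 2 probe sets most like each member's brightest one. Alternatives were other scalings, floors, filters, variance models, array weights, fits to the compared arrays alone and leaving arrays out.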

Additional observations from a re-analysis of the deposited data

Results flagged for a closer look

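Me1, the cytosolic malic enzyme (probe set 101082_at), had treatment effects of opposite sign in the 2 genotypes. All 3 R6/2 treated readings lay below all 4 R6/2 untreated ones, a change of -0.25, and all 3 WT treated readings lay above all 3 WT untreated ones, a change of 0.22. Groups did not overlap for 10.6% of kept probe sets in R6/2 mice and for 21.8% in WT mice, 11.4% with the treated group higher. The difference between these changes was -0.47 ± 0.16 (SE) on the log2 scale, with a limma p of 0.0106 and an adjusted p of 0.315, so it did not pass.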

How the results depend on the processing

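In the untreated genotype comparison 0 enzyme probe sets passed under 20 of 22 alternatives, and 0 to 1 when single arrays were left out: Sod1 without R6/2 untreated array 1 and Prdx2 99608_at without array 4. In the other 5 comparisons none passed under any alternative run. Pathway probe sets that passed moved more. From 11 in untreated mice they came to 6 with no filter, 3 with only the arrays compared, 3 without R6/2 untreated arrays 2 and 3, 2 without arrays 2, 3 and 4, and 3 to 17 with single arrays left out (3 without WT untreated array 2, 6 without WT untreated array 1 or 3 or R6/2 untreated array 2, 7 without R6/2 untreated array 3, 17 without array 4). From 0 in treated mice they came to 1 with array weights, 1 without arrays 2 and 3, 1 without arrays 2, 3 and 4, and 0 to 1 with single arrays left out (1 without WT treated array 1). From 5 for the averaged genotype effect they came to 10 with array weights, 3 without arrays 2, 3 and 4, and 3 to 9 with single arrays left out (9 without R6/2 untreated array 1 or 4, 3 without any 1 of the WT untreated arrays, WT treated array 2 or 3, R6/2 untreated array 2 or R6/2 treated array 1). For the treatment effect in R6/2 mice the range was 0 to 5 with single arrays left out (5 without R6/2 untreated array 1). In WT mice it was 2 with array weights and 0 to 1 with single arrays left out (1 without WT treated array 1). Over all kept probe sets the untreated genotype count was 73 to 1308 beside 887, and that in treated mice 20 to 208 beside 59. The averaged count was 233 to 932 beside 493. Treatment counts reached 116 in R6/2 and 120 in WT mice. No result changed sign with a call under any alternative run. The cause of these shifts was not tested, apart from the fewer arrays where arrays were left out. Leaving out arrays 2, 3 and 4, and the pathway alternatives, were added after seeing the data. No paired analysis was possible because the labels give no replicate numbers shared between groups.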
